A study of Homo sapiens with 8 samples.

Results

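The insulin-like growth factor (IGF) axis is represented here by 10 named genes: the ligands IGF1 and IGF2, the receptors IGF1R, IGF2R and INSR, the adaptors IRS1 and IRS2, and the binding proteins IGFBP2, IGFBP4 and IGFBP5. They were chosen by name and role, with earlier results of these data known. All 10 were among the 34788 genes to which reads could be summed. The Ewing sarcoma line A673 carries the EWSR1-FLI1 fusion, and A673/TR/shFEZF1 cells derived from it express the tetracycline repressor and an shRNA against FEZF1 that doxycycline switches on. RNA was sequenced from 4 control cultures kept without doxycycline and 4 cultures given doxycycline at 1 µg/mL for 72 h, 1 of each from a polyclonal population and from clones 3, 5 and 6. All 8 cultures carried the repressor and the shRNA construct and grew in DMEM with serum, blasticidin, puromycin and zeocin. The A673/TR parent was itself 1 clone selected for a high repressor level, so all cultures descend from that clone. No culture of cells without the shRNA given doxycycline was analysed here, so doxycycline itself and the loss of FEZF1 cannot be told apart.

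IGF1 and IGF2 bind the receptor tyrosine kinase IGF1R, and IGF2 also binds the insulin receptor INSR, above all the form made without its small alternative exon. The active receptors phosphorylate IRS1 and IRS2, which recruit PI3K and lead on to AKT and mTOR. IGF2R binds IGF2 and carries it to lysosomes, and the IGFBPs hold the ligands outside the cell until proteases release them. In Ewing sarcoma the axis is known as a growth pathway and IGF1R as a drug target.

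Of the 10 genes, IGFBP4 was upregulated upon doxycycline, from 10.7 ± 5.53 to 17.5 ± 7.25 CPM (SD, n = 4 each; CPM is the read count scaled to library size after TMM). Its mRNA was higher in 4 of 4 pairs of cultures, and this was the 1 change among the 9 members tested that passed, where 7.62% of all genes did. Changes were tested with edgeR's quasi-likelihood F test, in which each doxycycline culture is set against the control of its own origin (the block), and were called where the p-value adjusted over all 15991 genes tested by the Benjamini-Hochberg method was under 0.05. None of the 9 was called lower, and IGF2 had too few reads to be tested. The polyclonal population and the clones differed in 7 of the 9, where 39.4% of all genes differed, with IGF1R, IGFBP4 and IGFBP5 more than 2-fold apart between origins. The plot of CPM by culture shows all 10 genes.

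**Figure D1:**
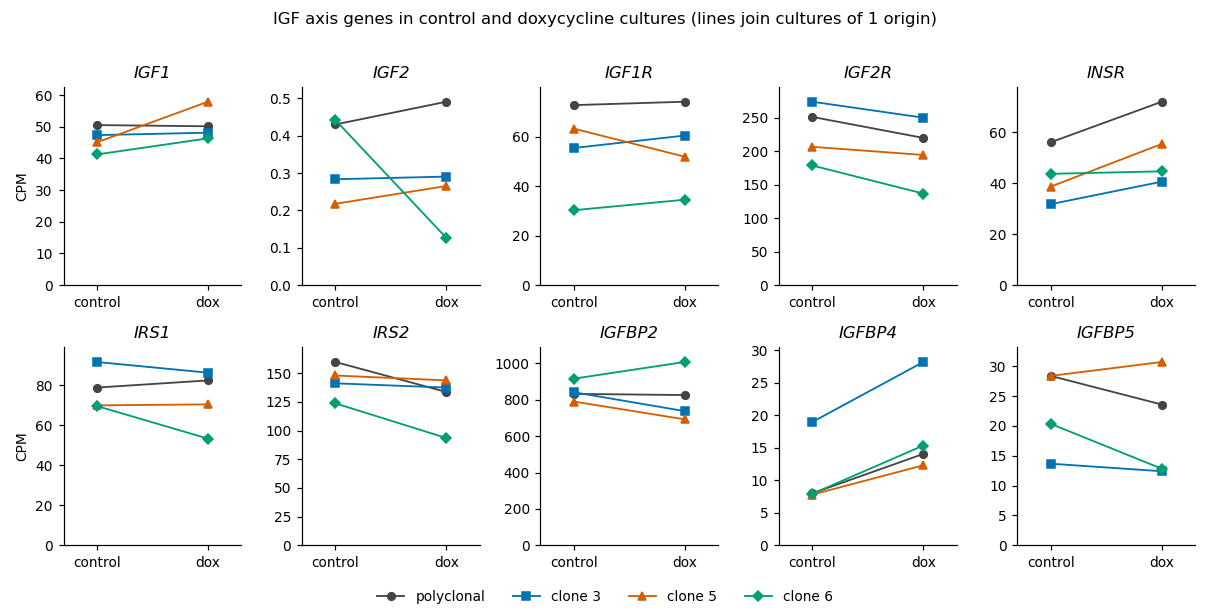
CPM (vertical axis, from 0, with a scale for each gene) in the control and doxycycline (dox) culture of the polyclonal population and clones 3, 5 and 6; each point is 1 library and lines join the cultures of 1 origin. The 4 lines of IGFBP4 and of INSR rise, those of IGF2R and IRS2 fall, and each of the other genes has lines that rise and lines that fall.

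The 8 libraries held between 26719886 and 42422421 reads assigned to transcripts (control 28170989 to 42422421, doxycycline 26719886 to 38104082). FEZF1, the shRNA target, fell in 4 of 4 pairs, from 87.1 ± 17.6 to 50.2 ± 12.4 CPM (SD, n = 4 each), and the groups did not overlap (4.97% of all genes tested did not). It changed by -0.81 on the log2 scale (standard error, SE, 0.0726; edgeR with the origin block, adjusted p = 0.00595). Without the block the adjusted p was 0.29 in edgeR and 0.0154 in DESeq2. Ewing sarcoma markers were present, with summed levels of 4125 to 5747 CPM in control and 4088 to 5914 CPM in doxycycline cultures over 9 genes; 8 were tested, 2 were called higher (NKX2-2, NR0B1) and 1 lower (LIPI). FLI1 reads could not be matched to the symbol. Hematopoietic markers summed to 4.38 to 11.1 CPM in control and 5.30 to 11.4 CPM in doxycycline cultures (CD3E at 0), and endothelial markers to at most 2.74 CPM, without CDH5, whose reads could not be matched to the symbol either. Epithelial markers reached 201 CPM, nearly all of it KRT18, the 1 called (higher) of 4 tested. Proliferation genes moved with the treatment: 5 of 12 were called lower (CCNB1, PCNA, MCM3, MCM5, E2F1). The sum of the 12 was 3529 to 3873 CPM in control against 2935 to 3342 CPM in doxycycline cultures. Beside these marker counts, 3.72% of all genes tested were called higher and 3.9% lower. The part of the proliferation genes in the values below was not tested, and in RNA of whole cultures fewer cells of a type and less RNA per cell cannot be told apart. Each culture was sequenced once. With the origin block, p-values for doxycycline rest on how far the difference from control varied across the 4 origins. Without the block they rest on the spread between the cultures of a group.

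Per transcript length, in deposited TPM summed per gene, IGFBP2 was by far the most abundant member, at 1250 ± 81.3 TPM in the control cultures (SD, n = 4, as for the next values). IRS2 (29.2 ± 4.23), IGF2R (26.7 ± 5.83) and IGF1 (24.6 ± 2.52) followed, then IRS1 at 14.7 ± 2.27 TPM. IGFBP4 (8.48 ± 4.38), IGF1R (8.27 ± 3.21), INSR (7.5 ± 2.1) and IGFBP5 (6.08 ± 2.02) lay below, and IGF2 was last at 0.129 ± 0.0435 TPM. The control ranges of neighbours in this order overlapped except between IGFBP2 and IRS2, IGF1 and IRS1, and IGFBP5 and IGF2. The order of the genes within an overlapping run is therefore not settled by these 4 cultures. The level of IGF1R is a lower limit, since only 69.5% of the reads that the authors' mean gives for it were matched to the symbol; for the other members the share was at least 95.6%.

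The ligands differed in level. IGF1, which lies at 102395874 to 102481744 of chromosome 12 (GRCh38, minus strand), was at 50.52, 47.36, 45.07 and 41.25 CPM in the control cultures of the polyclonal population and clones 3, 5 and 6. With doxycycline it was at 50.14, 48.12, 57.90 and 46.32 CPM in the same order. Only the clone 5 pair differed by more than the range of the control cultures, and the groups overlapped. The log2 fold change of 0.13 (SE 0.0771) did not pass the test (edgeR adjusted p = 0.336).

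IGF1 reads were not spread over its transcripts in the same way in both groups. The transcript NM_001111285.3, which at 1097 bases is the shortest of those with reads, took 18.6 ± 3.63% of IGF1 reads in control and 27.3 ± 5.32% in doxycycline cultures (SD, n = 4 each), and its share was higher in 4 of 4 pairs. The share of NM_000618.5, of 7277 bases, was 57.3 ± 5.02% and 46.1 ± 13.5%, lower in 3 of 4 pairs and higher in clone 3. The transcripts were singled out after their values were seen, so no test is given. With this shift the TPM-weighted mean effective length of IGF1 went from 3054 ± 289 to 2469 ± 319 bases, and its TPM from 24.6 ± 2.52 to 33.7 ± 4.85, higher in 4 of 4 pairs. When the fit was offset for this length, the log2 fold change of IGF1 was 0.44 and passed the threshold (edgeR adjusted p = 0.0282). IGF1 was thus called with the length offset and not without it, and no other test of IGF1 passed.

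**Figure D2:**
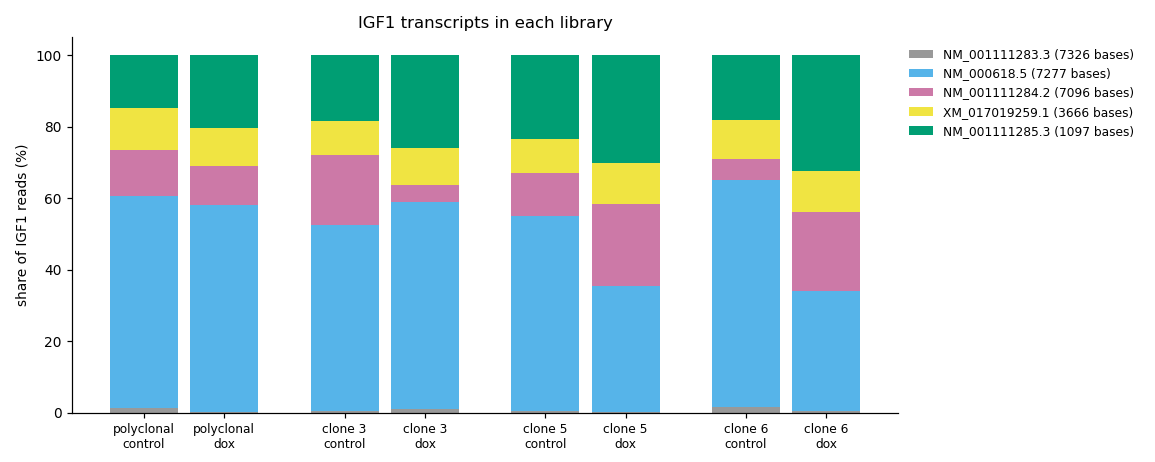
Share of IGF1 reads (percent, vertical axis) assigned to each transcript in the control and doxycycline culture of each origin, stacked to 100%; bars are single libraries and the legend gives transcript lengths. The segment of the shortest transcript (top) takes 14.7% to 23.5% of the control bars and 20.4% to 32.5% of the doxycycline bars.

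IGF2, on chromosome 11 from 2129112 to 2158391 on the minus strand, was nearly silent. It had between 3 and 17 reads in each library, or 0.43, 0.28, 0.22 and 0.44 CPM in the control cultures of the polyclonal population and clones 3, 5 and 6 and 0.49, 0.29, 0.27 and 0.13 CPM with doxycycline. Those counts are too few for a difference to be seen, and the low-count filter removed the gene before testing.

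The receptors showed no called change. IGF1R, on chromosome 15 from 98648539 to 98964530, was at 72.67, 55.36, 63.18 and 30.24 CPM in the control cultures, in the same order of origins, and at 74.05, 60.40, 51.83 and 34.48 CPM with doxycycline. It was higher in 3 pairs and lower in clone 5, with a log2 fold change of 0.01 (SE 0.0855; edgeR adjusted p = 0.954). Clone 6 was the lowest culture of both groups.

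INSR, the insulin receptor on chromosome 19 from 7112255 to 7294414, was at 56.14, 31.82, 38.72 and 43.75 CPM in control cultures and at 72.09, 40.67, 55.50 and 44.72 CPM with doxycycline. Each doxycycline culture was above its own control, clone 6 by the least, while the groups as wholes overlapped. The log2 fold change was 0.32 (SE 0.0848), and it was not called (edgeR adjusted p = 0.0625). Other filters on low counts, curated transcripts alone or DESeq2 with the block put it under 0.05.

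The form of the receptor without exon 11, which encodes INSR-A, was estimated from 2 curated transcripts that differ by 36 bases, NM_001079817 (without the exon) and NM_000208 (with it). NM_001079817 took 96.3, 100, 86.0 and 100% of their reads in the control cultures and 95.4, 100, 93.3 and 100% with doxycycline. The form without the exon thus took at least 86.0% of these reads in each culture, lowest in the clone 5 control. The means were 95.6 ± 6.59% and 97.2 ± 3.37% (SD, n = 4 each), a difference of 1.60 points. An exact permutation test that ignored origin gave a 2-sided p = 0.886, where 0.0286 is the smallest that 4 against 4 cultures allow. With the cultures paired by origin, the smallest p such a test allows is 0.125. Clones 3 and 6 were at 100% in both cultures, so only the polyclonal and clone 5 pairs differed, in opposite directions. A paired test can therefore not decide whether the share changed. Without clone 5 the difference in means was -0.287 points.

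IGF2R, which clears IGF2 and lies on chromosome 6 from 159969082 to 160113507, was at 251.10, 273.76, 206.44 and 178.54 CPM in control cultures. With doxycycline it was at 219.73, 249.93, 194.24 and 136.62 CPM, lower in 4 of 4 pairs while the groups overlapped. Its log2 fold change was -0.20 (SE 0.0616), which did not pass (edgeR adjusted p = 0.0949).

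The adaptors also stayed short of the threshold. IRS2, on chromosome 13 from 109752695 to 109786583, was at 159.83, 141.22, 148.05 and 123.78 CPM in control cultures and at 133.65, 137.52, 143.80 and 93.56 CPM with doxycycline. It was lower in 4 of 4 pairs, by little in clones 3 and 5, and its log2 fold change was -0.18 (SE 0.0729; edgeR adjusted p = 0.17). IRS1, on chromosome 2 from 226731312 to 226799820, was at 78.72, 91.50, 69.85 and 69.53 CPM and at 82.29, 86.15, 70.34 and 53.25 CPM. The IRS1 pairs were divided, 2 higher and 2 lower, with the largest difference in clone 6 (log2 fold change -0.10, SE 0.0807, adjusted p = 0.519 in the same test).

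Of the binding proteins, IGFBP4 was the member that rose. IGFBP4 binds IGF1 and IGF2 and keeps them from the receptor, and PAPPA (pappalysin) is the protease that cleaves it. The gene lies on chromosome 17 from 40443450 to 40457725 on the plus strand, and 1 curated transcript, NM_001552.3, carried all of its reads, between 197 and 970 in a library. It was at 8.0, 18.97, 7.80 and 7.92 CPM in the control cultures of the polyclonal population and clones 3, 5 and 6, and at 14.06, 28.20, 12.32 and 15.35 CPM with doxycycline. Within each origin the doxycycline culture was 1.49-fold (clone 3) to 1.94-fold (clone 6) the control. Across origins the groups overlapped, because the clone 3 control lay above the doxycycline cultures of the other 3 origins. The fitted log2 fold change was 0.75 (SE 0.0994), that is 1.68-fold (edgeR with the origin block, adjusted p = 0.00952).

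The IGFBP4 call rests on comparing each culture with its own control. Without the block the log2 fold change was 0.71 with an adjusted p = 0.767, and with both cultures of any 1 origin left out it was 0.68 to 0.81 with adjusted p-values of 0.029 to 0.0469 (edgeR). Clone 3, the highest for IGFBP4 in both groups, was also the highest for the sum of the mesenchymal markers. The sum was 4405 CPM in its control and 4261 CPM in its doxycycline culture, against 566 CPM in the lowest library. It was mostly COL1A1, COL1A2 and COL3A1. Other markers went the other way: DCN was lowest in clone 3 (3.59 CPM in control, 2.68 CPM with doxycycline), as was LUM (0.378 and 0.610 CPM). PDGFRA was highest in clone 6. Of the 7 mesenchymal markers 1 was called with doxycycline (PDGFRB, lower), where 3.9% of all genes tested were called lower. What part cells with high collagen mRNA had in the IGFBP4 level was not tested.

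**Figure D3:**
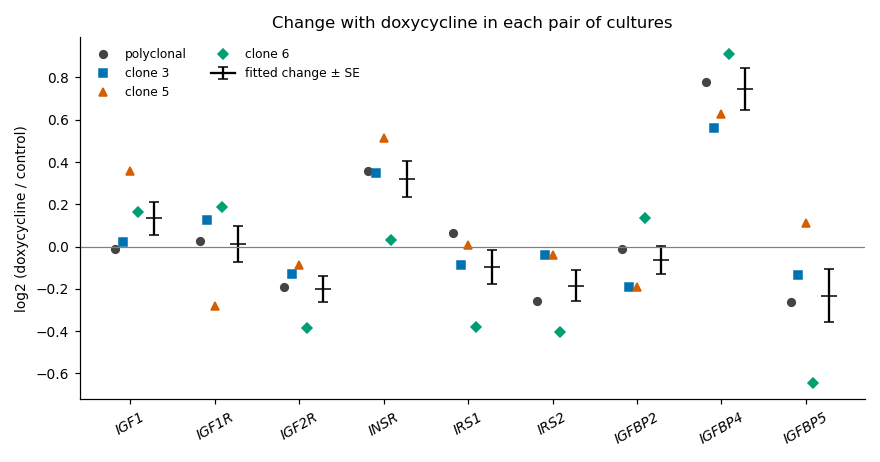
Log2 ratio of doxycycline to control CPM (0.5 added to each) in each of the 4 origins for the 9 members tested, with the fitted log2 fold change and its SE as a bar beside them. IGFBP4 lies above 0.5 in all 4 origins, INSR above 0, IGF2R and IRS2 below 0, and the points of the other 5 genes lie on both sides of 0.

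The 250 bases before the IGFBP4 start and those before STC2, an IGF regulator that rose as well, are shown because these were the called genes that act on IGF outside the cell. They come from RefSeq on GRCh38.p14, as chr17:40443200-40443449 on the plus strand and chr5:173328415-173328664 on the minus strand, 5′ to 3′, with each GGAA or TTCC in capitals, the core that FLI1 and other ETS factors recognise, read on both strands.
IGFBP4: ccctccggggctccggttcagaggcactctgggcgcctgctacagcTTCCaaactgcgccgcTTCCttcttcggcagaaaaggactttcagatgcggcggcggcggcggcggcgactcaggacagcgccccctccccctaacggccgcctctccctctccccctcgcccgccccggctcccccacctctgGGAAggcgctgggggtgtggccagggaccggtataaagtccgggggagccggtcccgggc
STC2: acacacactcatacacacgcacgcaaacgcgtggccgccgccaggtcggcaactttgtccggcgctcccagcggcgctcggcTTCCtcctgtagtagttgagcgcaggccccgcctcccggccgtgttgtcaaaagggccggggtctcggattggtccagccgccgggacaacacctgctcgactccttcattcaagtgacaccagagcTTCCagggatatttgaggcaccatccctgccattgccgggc
The IGFBP4 stretch holds 3 such tetramers and the STC2 stretch 2, and neither has GGAAGGAA or its reverse complement. Of 35116 promoters of the same length, 92.7% hold at least 1 tetramer with a median of 3, and 3.06% hold the tandem, so these matches are not particular to either gene. The IGFBP4 stretch is 71.6% GC and that of STC2 63.6%, against a median of 58.0% over all promoters.

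IGFBP2 and IGFBP5 are neighbours on chromosome 2, IGFBP2 from 216632828 to 216664436 on the plus strand and IGFBP5 from 216672105 to 216695549 on the minus strand. IGFBP2 was at 832.25, 841.30, 790.08 and 915.73 CPM in control cultures and at 825.69, 737.19, 692.05 and 1007.46 CPM with doxycycline. It was higher in the clone 6 pair alone, and its log2 fold change was -0.06 (SE 0.0673; edgeR adjusted p = 0.617). IGFBP5 was at 28.37, 13.67, 28.38 and 20.35 CPM in control cultures and at 23.58, 12.41, 30.71 and 12.83 CPM with doxycycline. It was lower in all but the clone 5 pair, with a log2 fold change of -0.23 (SE 0.123, adjusted p = 0.297 in the same test).

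As a group, 1 of the 9 members tested was called higher and 0 lower, against 7.62% of all 15991 genes called in either direction, 3.72% higher and 3.9% lower. Of the members 4 (IGFBP4, INSR, IGF2R and IRS2) had an unadjusted p under 0.05, against 24.8% of all genes. The same 4 moved in 1 direction in 4 of 4 pairs in CPM, against 33.3% of all genes. In TPM this held for IGFBP4 and IGF2R, while INSR was higher in 3 of 4 pairs and IRS2 in 1. By the alternatives tried, edgeR without the block called 0 members (0.00625% of all genes), DESeq2 with the block 3 (13.8%) and DESeq2 without it 0 (1.43%), with 0 members at an unadjusted p under 0.05 in either fit without the block. The median log2 fold change of the 9 was -0.06 against 0.00 over all genes tested. With 9 genes tested, nothing particular to the list is read from these shares.

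More members were called between origins than with doxycycline, as was so for all genes. An F test of origin in the same fit called 7 of 9 members, where 39.4% of all genes were called. IGF1R was at a mean of 73.4 CPM in the polyclonal population, 57.9 in clone 3, 57.5 in clone 5 and 32.4 in clone 6, over 2 cultures each (edgeR adjusted p = 0.0024). Clone 6 had the lowest IGF1R value, from the 69.5% of its reads that were matched, and it was lowest for IGF2R, IRS1 and IRS2 as well.

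Among the binding proteins, clone 3 stood apart for IGFBP4, which was at 11, 23.6, 10.1 and 11.6 CPM in the polyclonal population and clones 3, 5 and 6 (adjusted p = 0.00162 in the same edgeR test). IGFBP5 was at 26.0, 13.0, 29.5 and 16.6 CPM (adjusted p = 0.00567), with clones 3 and 6 close to each other and below the other two. INSR means ran from 36.2 CPM in clone 3 to 64.1 CPM in the polyclonal population (adjusted p = 0.00794).

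IGF2R ran from 158 CPM in clone 6 to 262 CPM in clone 3 (adjusted p = 0.00336), IRS1 from 61.4 to 88.8 CPM in the same clones (0.0288), and IRS2 from 109 CPM in clone 6 to 147 CPM in the polyclonal population (0.032), all by edgeR's test as above. IGF1 (adjusted p = 0.298) and IGFBP2 (0.0527) were not called between origins. Without clone 6 the origin test called 4 members, IGF2R, IGFBP4, IGFBP5 and INSR, and without clone 3 IGFBP4 was not among those called. With 1 control and 1 doxycycline culture of each origin, a clone and anything done to both of its cultures cannot be told apart.

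The other genes of the pathway were read from 4 lists of 47 genes, of which 40 were tested, and 3 were called with doxycycline (7.5%, against 7.62% of all genes), all 3 higher. Of 9 other extracellular regulators, 6 were tested (IGFBP1, IGFALS and PAPPA2 had too few reads), 1 was called higher, and their median log2 fold change was 0.18. The called gene was STC2 (stanniocalcin 2), a secreted inhibitor of PAPPA. It was at 33.13, 26.43, 27.91 and 25.01 CPM in the control cultures and at 48.57, 39.27, 45.65 and 40.17 CPM with doxycycline. Each doxycycline culture was above each control culture, with a log2 fold change of 0.63 beside 0.75 for IGFBP4 (SE 0.0657; edgeR with the origin block, adjusted p = 0.00636, and 0.193 without the block).

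PAPPA itself, singled out after its values were seen since it links IGFBP4 with STC2, was at 184.32, 133.56, 137.61 and 162.39 CPM in control cultures. With doxycycline it was at 194.91, 186.53, 219.46 and 181.00 CPM, higher in 4 of 4 pairs and most of all in clones 3 and 5. Its log2 fold change of 0.35 (SE 0.0988) did not pass (edgeR adjusted p = 0.0748). PAPPA was called higher by DESeq2 with the block and by edgeR with either of the other filters on low counts. The largest change among the other extracellular regulators tested went the other way, in IGFBPL1, also singled out after its values were seen. It fell in 4 of 4 pairs, from 3.44 ± 0.65 to 2.10 ± 0.57 CPM (SD, n = 4 each). Its log2 fold change of -0.73 (SE 0.213) did not pass either (edgeR adjusted p = 0.0797). It was called lower when at least 10 counts in every library were required.

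**Figure D4:**
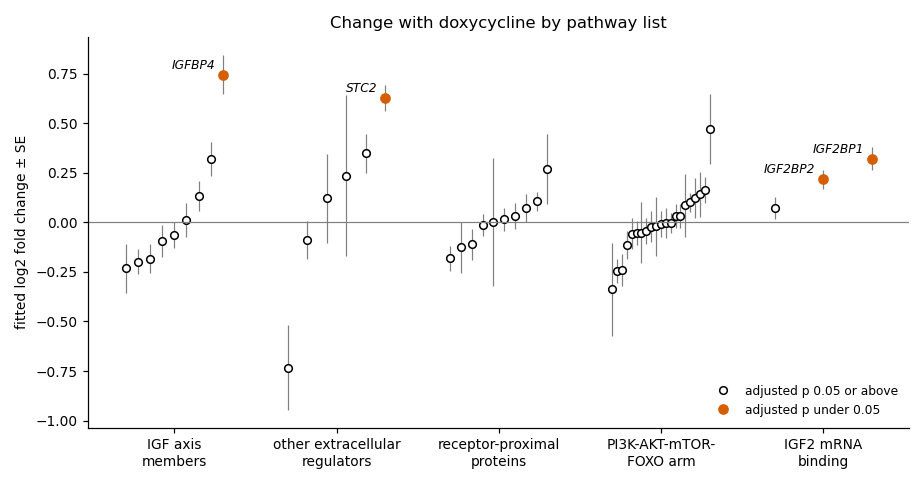
Fitted log2 fold change with doxycycline and its SE (vertical axis) for each gene tested, in the IGF axis members and the 4 pathway lists; within a list genes are sorted by value, and filled points have an adjusted p under 0.05. IGFBP4, STC2, IGF2BP1 and IGF2BP2 are the filled points, all above 0, and no gene of the receptor-proximal or PI3K-AKT-mTOR-FOXO lists is filled.

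The genes downstream of the receptors are read against 7.62% of all genes called and 24.8% at an unadjusted p under 0.05. Of 13 other receptor-proximal proteins 10 were tested and 0 were called, 1 having an unadjusted p under 0.05, with a median log2 fold change of 0.01; the smallest p-values were those of PTPN1, a phosphatase of the insulin receptor (log2 fold change -0.18, SE 0.0625, edgeR adjusted p = 0.123), and GRB2, an adaptor to RAS (0.11, SE 0.0485, adjusted p = 0.227). Of 21 genes of the PI3K-AKT-mTOR-FOXO arm all were tested and 0 were called, 4 having an unadjusted p under 0.05. PIK3R2, a regulatory subunit of PI3K, had a log2 fold change of -0.24 (SE 0.0607, edgeR adjusted p = 0.0513) and the kinase AKT1 one of -0.24 (SE 0.0794, adjusted p = 0.113). Under DESeq2 with the block both were called lower. Reads of PIK3CB (8.24% of the authors' mean), AKT2 (5.87%) and FOXO3 (37.0%) were matched only in small part, so that little can be read from these 3 genes.

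The RNA-binding proteins named for IGF2 mRNA were abundant although IGF2 itself was nearly silent. IGF2BP1 rose from 531 ± 70.1 to 666 ± 114 CPM (SD, n = 4 each; log2 fold change 0.32, SE 0.0575, edgeR adjusted p = 0.0217), and IGF2BP2 from 117 ± 10.9 to 136 ± 12.8 CPM (0.22, SE 0.0478, adjusted p = 0.0385). Both were higher in 4 of 4 pairs, and neither call held with any 1 origin left out (adjusted p = 0.052 to 0.124 and 0.0802 to 0.199). From curated transcripts alone the log2 fold change of IGF2BP2 was -0.10. IGF2BP3 was not called, and H19, the noncoding neighbour of IGF2, had too few reads.

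Over the 8 libraries, the genes whose log2 CPM followed that of IGFBP4 most closely, among 9442 genes with a mean of at least 10 CPM, were RCAN1 (Pearson r = 0.981), RIGI (0.976) and HSD17B2 (0.97). RCAN1, an inhibitor of calcineurin, ranged from 12.6 to 27.8 CPM, RIGI, a sensor of viral RNA, from 8.60 to 16.4 CPM, and HSD17B2, a steroid dehydrogenase, from 8.59 to 27.7 CPM. Each was highest in the doxycycline culture of clone 3, as IGFBP4 was. These are descriptions over points that share origin and treatment.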

How the data were processed

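Per the labels and the study's methods, TruSeq stranded mRNA libraries of A673/TR/shFEZF1 cells were quantified with Salmon on GRCh38 RefSeq transcripts, and the authors deposited, for the 8 libraries, estimated counts, TPM and effective length for each of 158867 transcripts. Whether Salmon used read strand is not given in the sources used here. The authors also deposited a DESeq2 table: its mean signal of normalized counts served to see how much of a gene's reads was matched, and its fold changes and p-values were not used. The clone 5 control file had another row order and number format than the other 7, and was read by transcript name.

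Transcripts were matched to symbols through RefSeq (115319 of them, 72.6%, holding 89.9% to 91.1% of reads), and the estimated counts were summed per gene and rounded. The 34788 genes were filtered with filterByExpr (15991 left), scaled by TMM and tested with edgeR 4.0.16 (glmQLFit, glmQLFTest) in R 4.3.3, on origin plus treatment, with Benjamini-Hochberg adjustment over all genes tested and a threshold of 0.05. The study names no pairing; origin was made the block because both cultures of an origin come from the same cells. Deviations from group means correlated at 0.406, 0.546, 0.590 and 0.582 within the polyclonal population and clones 3, 5 and 6, and at -0.395 to 0.179 between origins. Alternatives were no block, DESeq2 1.42.0 with and without it, DESeq2 size factors, 2 other filters, curated transcripts, a length offset and leaving out each origin. A pseudocount of 0.5 was added to CPM in the ratios of single pairs. Coordinates are from GENCODE 44 (GRCh38). The fits were also run on simulated counts in which the change with treatment was the same in all origins. That simulation can therefore not show how the fits perform where changes vary between origins. The members and lists were chosen with earlier results of these data known. Named were FEZF1, the members, the called genes of each list or otherwise its 2 smallest p-values, and the 3 genes most like a called member. PAPPA and IGFBPL1 were added after their values were seen. Python 3.11.15, pandas 2.3.3, scipy 1.17.1 and matplotlib 3.10.9 were used. At 26719886 to 42422421 assigned reads a library, depth limits IGF2 most.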

Additional observations from a re-analysis of the deposited data

Results flagged for a closer look

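IGFBP4 in the control cultures was at 18.97 CPM in clone 3 against 7.80 to 8.0 CPM in the polyclonal population and clones 5 and 6, so the clone 3 culture lay far from the other 3. The doxycycline culture of clone 3 was the highest as well, at 28.20 CPM. This was 1 of 40 groups of 4 cultures examined in this way, in which chance gives about 2 such groups.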

How the results depend on the processing

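Of the 204 combinations of an alternative with a tested member or a named gene of the pathway lists (FEZF1 and IGFBPL1 apart), 167 kept their direction and side of the threshold, 17 lost the call, 12 gained it and 8 changed sign. The replicate block mattered most. Without it edgeR called 1 of all genes tested (1155 at an unadjusted p under 0.05), 0 members (0 unadjusted) and 0 pathway genes (6 unadjusted), and FEZF1, at a log2 fold change of -0.80, lost its call. DESeq2 called 1879 genes, 3 members (IGF2R, IGFBP4, INSR) and 6 pathway genes with the block, and 210 genes, 0 members (0 unadjusted) and 1 pathway gene (STC2) without it. FEZF1 kept its call in DESeq2 with and without the block. Members called were 2 with at least 1 count in any library, with at least 10 counts in every library and with curated transcripts (IGFBP4 and INSR each time), and 2 with the length offset (IGF1 and IGFBP4). Pathway genes called were 6 with at least 10 counts and 1 with curated transcripts, where 493 genes were called in all.

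With 1 origin left out, 175 (without clone 5) to 699 genes were called, 1 member (IGFBP4) each time, and 1 pathway gene (STC2) each time; FEZF1 was at -0.86 to -0.73, 4 to 7 members differed between origins, and the INSR share differed by -0.287 to 2.42 points. IGF1R, near 0 throughout, changed sign to -0.0045 (no block), -0.0026 and -0.018 (DESeq2 with and without the block), -0.0013 (DESeq2 size factors) and -0.038 (length offset), and was at -0.0434 to 0.0951 with 1 origin left out. IGF2BP2 was at -0.10 with curated transcripts. Adjusted p-values over the alternatives ran from 9.35e-06 to 0.767 for IGFBP4 and from 0.0242 to 0.888 for INSR. The causes were not tested. Depth limits IGF2, with 3 to 17 reads.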
